A study of Mus musculus with 44 samples.

Results

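The Toll-like receptor system was followed through 10 genes in RNA-seq libraries of primary mouse microglia and astrocytes: the surface receptors Tlr2 and Tlr4, their co-receptor Cd14, the endosomal receptors Tlr3, Tlr7, Tlr9 and Tlr13, the adaptors Myd88 and Ticam1, and the kinase Ikbke. The genes were taken by symbol from a count table of 54146 mouse Ensembl identifiers, and 10 of 10 were found and tested in every comparison. The libraries came from 4 genotypes. KO cells carried a knockout of Apoe, the gene of the main lipid carrier of the brain. APOE44 and APOE33 cells are named for homozygous APOE4 and APOE3 alleles, and WT cells had the wild-type mouse gene. The sources used here do not say how the alleles were made, how old the mice were or which brain region the cells came from. Each cell type had 4 KO libraries (1 female, 3 male), 6 APOE44 libraries (3 female, 3 male), 6 APOE33 libraries (4 female, 2 male) and 6 WT libraries (3 female, 3 male). All cells were purified primary cells, grown in media for human microglia and astrocytes and left untreated. The 32 KO, APOE44 and APOE33 libraries carry a batch tag of 1 and the 12 WT libraries a batch tag of 2, although the labels place all RNA extraction in a single batch. What the tag stands for is not given, and wherever WT is compared, genotype and batch cannot be told apart. Nothing in the labels says that replicates were separate animals or cultures, and p-values therefore measure only the spread between these libraries.

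Toll-like receptors recognise conserved microbial molecules and some molecules released by damaged cells. The surface receptors meet bacterial lipoproteins and lipopolysaccharide, and the endosomal receptors meet nucleic acids. Most of them signal through the adaptor MyD88 to NF-kB and the genes of inflammatory cytokines, while TLR3, and TLR4 after it has been taken up, use the adaptor TRIF and a kinase branch that ends in type I interferon. In the brain, microglia are the main carriers of these receptors, and astrocytes are known for TLR3.

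Total counts ran from 83239599 to 143150569 per library and RIN, a score of RNA integrity, from 8.9 to 10. The Apoe gene averaged 15.7 ± 9.37 CPM (counts scaled to library size, SD, n = 4) in KO microglia, 54.1 ± 4.52 in APOE44 microglia, 55.1 ± 13.9 in APOE33 microglia and 51380 ± 5702 in WT microglia (SD, n = 6 each). In astrocytes it averaged 11.4 ± 1.60 CPM in KO (SD, n = 4), 24.8 ± 4.30 in APOE44, 24.1 ± 4.50 in APOE33 and 5814 ± 538 in WT (SD, n = 6 each). These counts are of the mouse gene, and reads from human APOE alleles may not be counted in them. They do not give the level of APOE in APOE44 and APOE33 cells. A single tag disagrees with the rest: the genotype of replicate 1 of APOE33 astrocytes is tagged WT, while its title, source and batch name APOE33, where it was kept. A set of 18 microglia and macrophage markers summed to between 23353 and 40048 CPM in microglia libraries and between 157 and 610 CPM in astrocyte libraries, and no astrocyte group had any of the 18 at 0 in all its libraries. A set of 18 astrocyte markers summed to between 778 and 1604 CPM in microglia libraries and between 15940 and 22707 CPM in astrocyte libraries.

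All 10 genes differed between the cell types, with 9 higher and 1 lower in microglia. Tlr3, the receptor for double-stranded RNA, was the exception. A gene was called at an adjusted p under 0.05 in edgeR's quasi-likelihood test, and 90.9% of the 21647 genes tested in batch 1 were called between the cell types (40.3% higher and 50.6% lower in microglia), so a call alone says little here and the sizes matter more. Over the 32 libraries of batch 1 the median log2 difference of the 10 genes was 4.32, against -0.25 over all genes tested.

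Of the surface receptors and their co-receptor, Tlr2 and Cd14 stood far apart between the cell types and Tlr4 less so. Tlr2, the receptor for bacterial lipoproteins, ran from 346 to 774 CPM in microglia with a median of 615, against 1.59 to 6.52 CPM in astrocytes with a median of 3.01. Cd14, which hands lipopolysaccharide to TLR4, ran from 194 to 879 CPM in microglia with a median of 392, against 1.21 to 3.04 CPM in astrocytes with a median of 2.27. The lowest microglia library was far above the highest astrocyte library for both genes. The log2 differences were 7.33 for Tlr2 (SE 0.20, adjusted p = 8.54e-23) and 7.67 for Cd14 (SE 0.19, adjusted p = 4.15e-24). Tlr4, the lipopolysaccharide receptor, ran from 45.0 to 66.1 CPM in microglia with a median of 54.7, against 7.39 to 11.3 CPM in astrocytes with a median of 8.83. Its log2 difference was 2.65 (SE 0.06, adjusted p = 1.22e-26).

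Among the endosomal receptors, Tlr9, the receptor for unmethylated CpG DNA, ran from 49.7 to 110 CPM in microglia (median 69.7), against 0.156 to 0.682 CPM in astrocytes (median 0.378). Tlr13, a mouse receptor for bacterial ribosomal RNA, ran from 463 to 702 CPM in microglia (median 615), against 2.04 to 11.99 CPM in astrocytes (median 4.32). Tlr7, a receptor for single-stranded RNA, ran from 265 to 361 CPM in microglia (median 318), against 1.90 to 11.0 CPM in astrocytes (median 5.39). Their log2 differences were 7.59 (SE 0.17), 6.86 (SE 0.21) and 5.73 (SE 0.24), each called with an adjusted p of 2.03e-18 or less in batch 1. Tlr3 went the other way. It ran from 22.2 to 30.2 CPM in microglia (median 26.1), against 62.9 to 86.4 CPM in astrocytes (median 70.1). The ranges did not overlap, and Tlr3 was lower in microglia by a log2 value of -1.49 (SE 0.04, adjusted p = 4.94e-23). Tlr3 overlaps the antisense gene Gm45542, and reads of an overlapping pair cannot be told apart without strand information, which the sources used here do not give.

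The adaptors and the kinase were also higher in microglia. Myd88 ran from 48.3 to 60.7 CPM in microglia (median 53.9), against 10.8 to 17.2 CPM in astrocytes (median 13.1). Ticam1, which encodes TRIF, ran from 24.3 to 35.4 CPM in microglia (median 28.4), against 14.7 to 19.6 CPM in astrocytes (median 17.2). Ikbke, which encodes IKK-epsilon, a kinase of the interferon branch related to TBK1, ran from 23.0 to 150 CPM in microglia (median 83.6), against 8.80 to 17.8 CPM in astrocytes (median 13.1). No astrocyte library reached the lowest microglia library for these 3 genes. The log2 differences in batch 1 were 1.92 for Myd88 (SE 0.04, adjusted p = 1.68e-25), 0.80 for Ticam1 (SE 0.04, adjusted p = 1.8e-17) and 2.91 for Ikbke (SE 0.06, adjusted p = 6.93e-26). Myd88 shares exonic bases with Acaa1a on the opposite strand, and Ikbke with the antisense genes Gm28913 and Gm28914, so their counts are uncertain in the same way.

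The same comparison within the 12 WT libraries again called 10 of 10 genes, with Tlr3 again the single lower one; 89.5% of all genes tested were called there (41.6% higher, 47.9% lower). The log2 values in WT were 7.13 for Tlr2, 6.53 for Cd14, 2.48 for Tlr4, 7.34 for Tlr9, 6.81 for Tlr13, 5.65 for Tlr7, -1.50 for Tlr3, 1.97 for Myd88 and 0.59 for Ticam1 (SE 0.03 to 0.29). Ikbke stood at 1.35 in WT (SE 0.10), against 2.91 in batch 1. The difference between the batches was not tested.

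The astrocyte levels were set against those of the microglia markers. The 18 markers stood in astrocytes at 0.271% to 2.02% of their microglia level, with a median of 0.827%. Cd14 stood at 0.512%, Tlr9 at 0.525%, Tlr2 at 0.596%, Tlr13 at 0.863% and Tlr7 at 1.87% of the microglia level, all 5 inside the range of the markers. Ikbke at 15.8%, Tlr4 at 16.2%, Myd88 at 25.4%, Ticam1 at 58.6% and Tlr3 at 275% all lay above the highest marker. These shares are over all genotypes and both batches; per library, that of Ikbke had a median of 10.4% in KO, 15.1% in APOE44, 13.8% in APOE33 and 37.3% in WT. In bulk RNA a few cells of one type and a little RNA in every cell cannot be told apart, and what part microglia in the astrocyte cultures had in the first 5 levels was not tested.

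**Figure D1:**
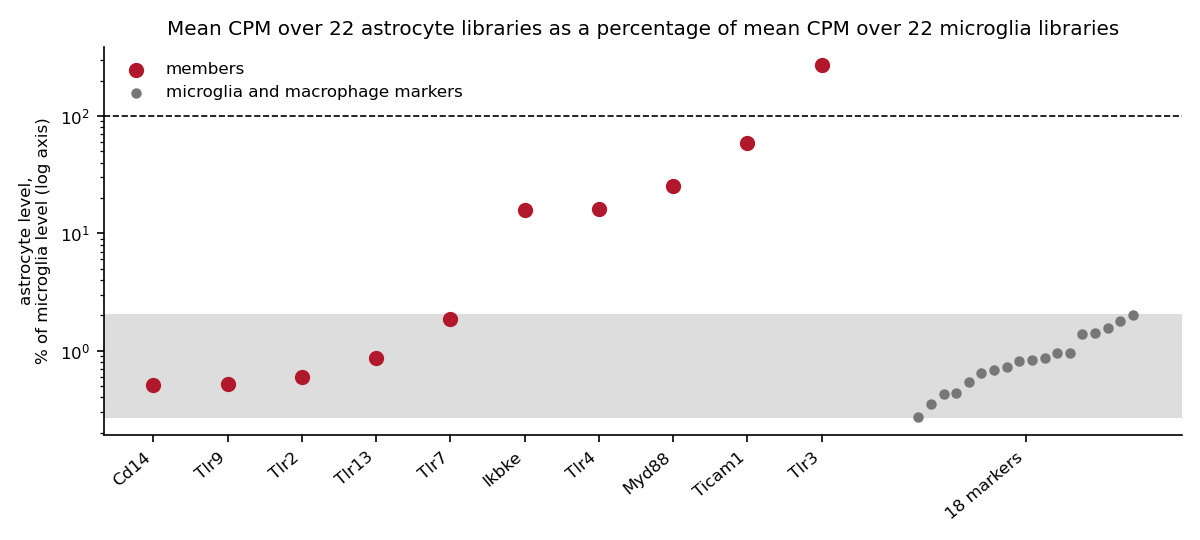
Mean CPM over the 22 astrocyte libraries as a percentage of the mean over the 22 microglia libraries, on a log axis, for the 10 genes (red) and 18 microglia and macrophage markers (grey, shaded range). Cd14, Tlr9, Tlr2, Tlr13 and Tlr7 lie inside the range of the markers (0.271% to 2.02%), and Tlr3 alone lies above the dashed line at 100%.

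Per kilobase of exon, the order of levels differed between the cell types. In WT microglia Tlr13 (151 ± 9.66 CPM per kb), Cd14 (144 ± 11.5) and Tlr2 (134 ± 16.3) led, and neighbours among these 3 lay within their SDs (n = 6). Tlr7 followed at 81.4 ± 4.15 CPM per kb, then Myd88 at 20.5 ± 1.53, Tlr9 at 15.1 ± 0.793, Tlr4 at 10.3 ± 0.896, Ticam1 at 8.35 ± 0.257, Tlr3 at 4.99 ± 0.418 and Ikbke at 3.24 ± 0.445, each clear of its neighbour by the SDs. In WT astrocytes Tlr3 led at 13.5 ± 0.640 CPM per kb, followed by Ticam1 at 5.30 ± 0.189 and Myd88 at 5.004 ± 0.135, a pair within their SDs. Tlr4, Tlr7, Cd14, Tlr13, Ikbke and Tlr2 lay between 0.919 and 1.77 CPM per kb with no neighbours clear of each other, and Tlr9 was last at 0.0885 ± 0.0289. The first 3 places in APOE33 astrocytes went to the same genes. Cd14 was first in APOE44 microglia at 322 ± 63.6 CPM per kb, clear of Tlr2 at 225 ± 18.9, and first in APOE33 microglia at 347 ± 128, within the SDs of Tlr2 at 228 ± 19.99 (n = 6 each).

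In microglia the largest differences between genotypes of batch 1 were in Tlr2, Cd14 and Ikbke. Tlr2 stood at 356, 426, 450 and 440 CPM in the 4 KO libraries, against 616 to 746 CPM in APOE44 (median 680) and 614 to 774 CPM in APOE33 (median 695). All 4 KO libraries lay below every APOE44 and APOE33 library. The log2 difference of Tlr2 was -0.77 against APOE33 (SE 0.09, adjusted p = 2.43e-05) and -0.73 against APOE44 (SE 0.08, adjusted p = 2.11e-05).

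Cd14 stood at 194, 230, 220 and 235 CPM in the KO libraries, against 472 to 769 CPM in APOE44 (median 519) and 373 to 879 CPM in APOE33 (median 556). The KO values were close together and below both other groups, while APOE33 was widely spread. Cd14 fell by 1.54 (log2) against APOE33 (SE 0.26, adjusted p = 0.000863) and by 1.39 against APOE44 (SE 0.25, adjusted p = 0.00109). Within APOE33, replicates 1, 2 and 3 had 879, 659 and 833 CPM of Cd14, and replicates 4, 5 and 6 had 453, 410 and 373. The same 3 libraries held the 3 highest APOE33 values of Tlr9 (100, 84.0 and 110 CPM, against 69.2, 63.3 and 63.9) and of Ticam1 (33.4, 32.3 and 35.4 CPM, against 28.0, 28.1 and 29.3), and the 3 lowest of Tlr13 (518, 513 and 463 CPM, against 583, 596 and 584). They also held the 3 lowest of Tlr4 (55.7, 48.3 and 51.4 CPM, against 66.1, 59.8 and 61.4). The same was seen for Tlr3 (25.8, 22.3 and 22.2 CPM, against 27.1, 30.2 and 26.7). Myd88 had 52.5, 53.15 and 51.3 CPM in them, against 59.9, 55.8 and 55.4. Tlr2, Tlr7 and Ikbke did not split this way. Both sexes occur on each side, and RIN was 9.8 to 9.9 in the first 3 libraries and 9.6 to 9.8 in the others. The replicate number separates them, and what its order stands for is not given. No other label does.

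Ikbke went the other way, at 126, 148, 150 and 150 CPM in the KO libraries, against 80.0 to 101 CPM in APOE44 (median 88.1) and 66.1 to 102 CPM in APOE33 (median 87.1). All 4 KO libraries lay above all 12 others. The log2 difference was 0.76 against APOE33 (SE 0.11, adjusted p = 0.000299) and 0.69 against APOE44 (SE 0.11, adjusted p = 0.000288).

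Against APOE33, 3 of 10 genes were called in KO microglia, 1 higher and 2 lower, as were 22.7% of all 17143 genes tested (10.9% higher, 11.9% lower). The other 7 had log2 values from -0.22 (Tlr4) to 0.17 (Tlr13). Among them, Myd88 stood at 50.2, 49.996, 49.8 and 49.3 CPM in KO, against 51.3 to 59.9 CPM in APOE33 (median 54.3). The ranges did not overlap, and the log2 value of -0.13 (SE 0.06, adjusted p = 0.117) did not pass the test. Without APOE33 replicate 6 the count was 5 of 10, with Tlr13 (adjusted p = 0.0351) and Ticam1 (0.0386) past the threshold as well. The median log2 difference was -0.13 over the 10 genes and -0.02 over all genes.

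Against APOE44, 6 of 10 genes were called in KO microglia, 1 higher and 5 lower, as were 26.9% of all genes tested (13.6% higher, 13.4% lower). Beside the 3 above, Ticam1 stood at 27.9, 27.7, 28.8 and 27.8 CPM in KO, against 30.6 to 34.0 CPM in APOE44 (median 33.3), with no overlap and a log2 difference of -0.25 (SE 0.06, adjusted p = 0.0103). Tlr7 stood at 320, 265, 295 and 292 CPM in KO, against 309 to 361 CPM in APOE44 (median 350), and KO replicate 1 overlapped that range. Its log2 difference was -0.24 (SE 0.05, adjusted p = 0.00334). Myd88 fell by 0.18 (SE 0.06, adjusted p = 0.0223), although all 4 KO libraries lay within the APOE44 range of 48.4 to 60.7 CPM, whose lowest value is APOE44 replicate 5. The call of Myd88 was lost without KO replicate 1 (adjusted p = 0.0975), without KO replicate 3 (0.0505), and without APOE44 replicate 1 (0.0560) or 3 (0.0575). The comparisons of KO with APOE33 and with APOE44 share the KO libraries.

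No gene of the 10 was called between APOE44 and APOE33 microglia, where 0.84% of all genes were called by edgeR. At an unadjusted p under 0.05 there were 2 of 10, Tlr13 at a log2 value of 0.20 (SE 0.07, adjusted p = 0.214) and Tlr7 at 0.13 (SE 0.05, adjusted p = 0.266). Tlr13 stood at 531 to 666 CPM in APOE44 (median 628), against 463 to 596 CPM in APOE33 (median 551). The other 8 log2 values lay between -0.15 (Cd14, SE 0.21) and 0.07 (Tlr3, SE 0.07), and DESeq2 called 0 of 10 as well.

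**Figure D2:**
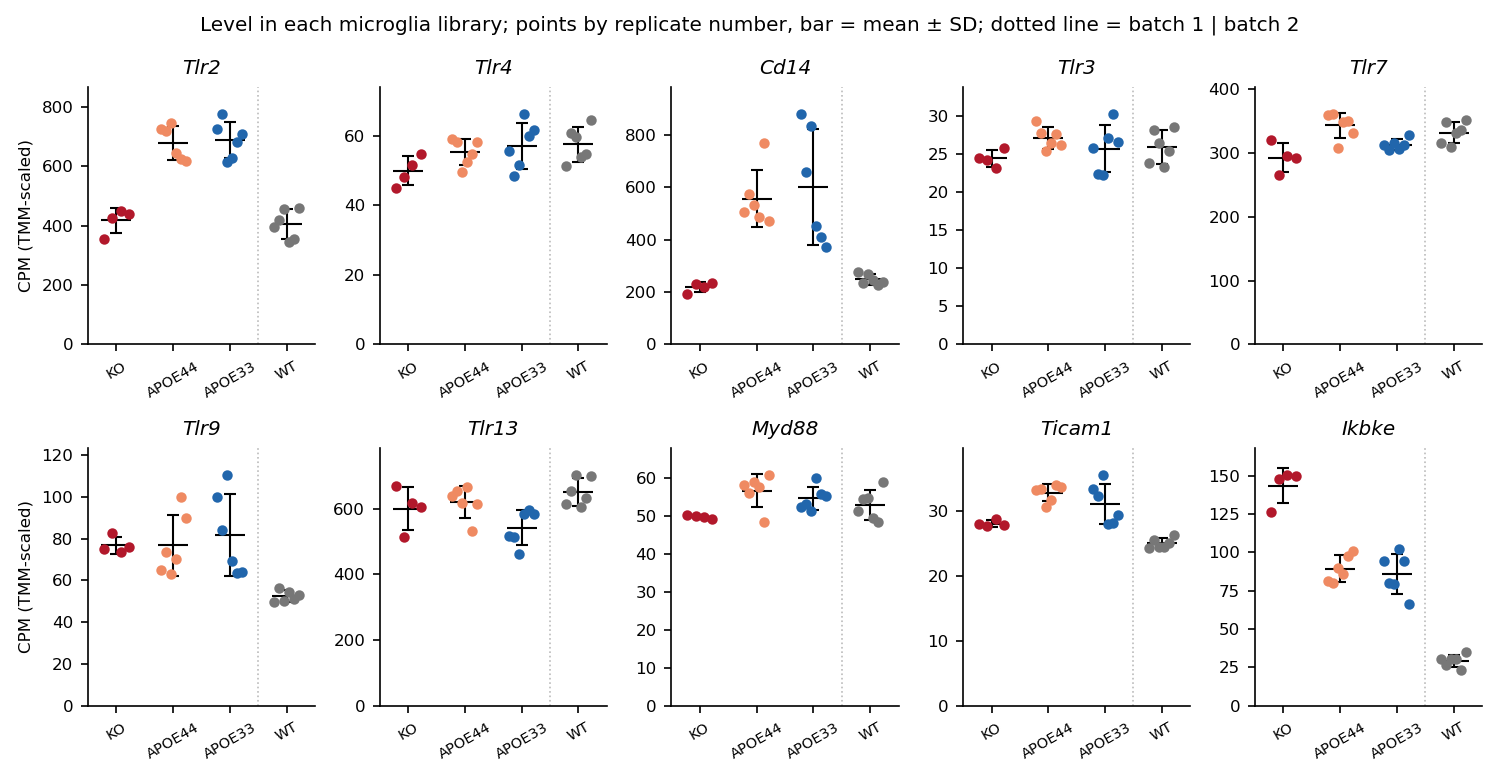
CPM of the 10 genes in each microglia library (points in order of replicate number) with the mean ± SD for 4 KO, 6 APOE44, 6 APOE33 and 6 WT libraries; the dotted line parts batch 1 from batch 2. KO libraries lie below APOE44 and APOE33 for Tlr2 (356 to 450 CPM) and Cd14 (194 to 235 CPM) and above them for Ikbke (126 to 150 CPM), and WT is lowest for Ikbke (23.0 to 34.9 CPM).

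Marker genes were read in the same libraries. Of all genes tested, 10.9% were called higher and 11.9% lower in KO than in APOE33 microglia. The 18 microglia markers summed to 31948 to 34615 CPM in KO microglia, against 32507 to 38481 CPM in APOE44 and 34318 to 40048 CPM in APOE33; against APOE33, 6 of 18 were lower and 0 higher. The border macrophage and monocyte markers, of which 5 of 10 were tested, summed to 1749 to 1934 CPM in KO, against 1153 to 1500 CPM in APOE44 and 1094 to 1541 CPM in APOE33, and 4 of those 5 were higher against APOE33; Cd209f and Plac8 were at 0 in all libraries of the 3 groups and Ly6c2 in those of APOE33. The 18 astrocyte markers summed to 778 to 937 CPM in KO microglia, against 1255 to 1339 CPM in APOE44 and 1183 to 1604 CPM in APOE33, with 2 of the 17 tested called higher and 1 lower against APOE33, and with Gjb6 at 0 in all APOE44 libraries. The oligodendrocyte lineage markers summed to 220 to 258 CPM in KO, against 319 to 411 CPM in APOE44 and 245 to 352 CPM in APOE33; 7 of the 15 tested were lower against APOE33, and Mog, Ermn and Gpr17 were at 0 in KO. The endothelial markers summed to 195 to 333 CPM in KO, against 169 to 227 CPM in APOE44 and 147 to 218 CPM in APOE33; of the 5 of 9 tested, 2 were higher and 1 lower against APOE33, and Cldn5 was at 0 in all 3 groups. Neuron markers summed to no more than 8.86 CPM, and mural and fibroblast markers to no more than 6.99 CPM, in any library of the 3 groups. The part of these markers in the results was not tested.

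In astrocytes 2 of the 10 genes, Tlr13 and Myd88, were called between genotypes of batch 1, and neither call was kept in every alternative fit. Tlr13 stood at 9.56, 11.99, 4.72 and 7.83 CPM in KO, against 2.04 to 6.46 CPM in APOE44 (median 4.005) and 2.08 to 7.95 CPM in APOE33 (median 3.69). The groups overlapped, with KO replicate 3 among the APOE44 and APOE33 values. The log2 difference was 1.24 against APOE33 (SE 0.40, adjusted p = 0.0473) and 1.23 against APOE44 (SE 0.38, adjusted p = 0.0330). The call against APOE33 was kept in 4 of 15 alternative fits, with adjusted p values from 0.0143 to 0.122; it was lost without any single library except APOE33 replicate 2 or KO replicate 3. The call against APOE44 was kept in 9 of 15 fits (adjusted p 0.0124 to 0.0987), and was lost without KO replicate 1, 2 or 4 or APOE44 replicate 1.

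Myd88 stood at 17.2, 15.1, 16.9 and 16.7 CPM in KO astrocytes, against 12.03 to 14.4 CPM in APOE44 (median 12.5) and 10.8 to 15.6 CPM in APOE33 (median 13.2). The KO range was clear of APOE44 and overlapped APOE33. Against APOE44 the log2 difference was 0.33 (SE 0.10, adjusted p = 0.0211), and against APOE33 it was 0.25 (SE 0.10, adjusted p = 0.0862). The call against APOE44 was lost without KO replicate 1 (adjusted p = 0.107) or 3 (0.0535) and without APOE44 replicate 3 (0.0503) or 5 (0.0592). Ikbke stood at 14.4, 15.6, 14.4 and 17.8 CPM in KO, against 11.2 to 14.6 CPM in APOE44 and 11.1 to 15.6 CPM in APOE33, and was not called against APOE44 (adjusted p = 0.135) or APOE33 (adjusted p = 0.0522).

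Against APOE33, 1 of 10 genes was called in KO astrocytes, in the higher direction, as were 17.2% of the 20481 genes tested (8.37% higher, 8.83% lower). Against APOE44, 2 of 10 were called, both higher, as were 22.7% of all genes (11% higher, 11.8% lower). Between APOE44 and APOE33 astrocytes 0 of 10 were called by edgeR or DESeq2, with 0 of 10 at an unadjusted p under 0.05 and log2 values from -0.08 to 0.09; 0.703% of all genes were called. Microglia markers in astrocytes overlapped between the groups in their sum. They summed to 282 to 567 CPM in KO, against 157 to 558 CPM in APOE44 and 189 to 610 CPM in APOE33, and 18 of 18 had a positive log2 value against APOE33 (median 0.76), of which 2 were called. In KO replicates 1, 2, 3 and 4 Tlr13 stood highest in replicate 2 and lowest in replicate 3. As a share of the microglia mean, the summed markers stood at 1.53%, 1.71%, 0.851% and 1.24% in KO replicates 1, 2, 3 and 4. Tlr13 stood at 1.59%, 2.00%, 0.785% and 1.30% in the same libraries. The median share of the markers was 0.907% in APOE44 and 0.831% in APOE33, and that of Tlr13 0.646% and 0.679%. The share of Myd88 was 30.3% to 34.5% in the 4 KO libraries. The part of the microglia markers in the astrocyte results was not tested.

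**Figure D3:**
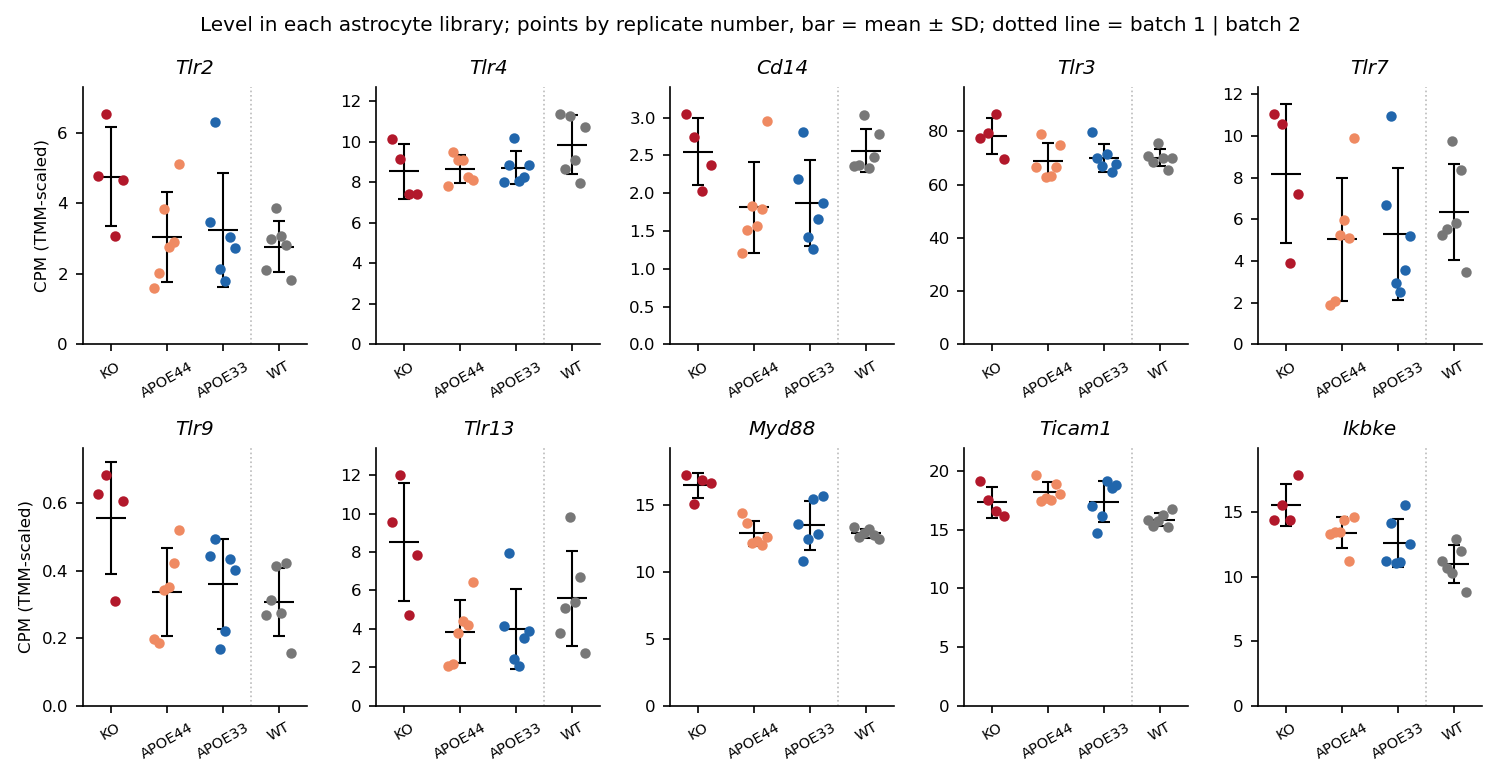
CPM of the 10 genes in each astrocyte library (points in order of replicate number) with the mean ± SD for 4 KO, 6 APOE44, 6 APOE33 and 6 WT libraries; the dotted line parts batch 1 from batch 2. Tlr13 in KO (4.72 to 11.99 CPM) overlaps the other groups, while Myd88 in KO (15.1 to 17.2 CPM) lies clear of APOE44 and WT.

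Whether KO differed from APOE33 by another amount in microglia than in astrocytes was tested in 1 fit over the 32 libraries of batch 1. For 3 of 10 genes the difference of the effects was called, and for 12.7% of all genes. In log2 units it was -1.46 for Tlr2 (SE 0.40, adjusted p = 0.0148), -2.09 for Cd14 (SE 0.36, adjusted p = 0.000297) and -0.39 for Myd88 (SE 0.12, adjusted p = 0.0230). In each case the KO value was below APOE33 in microglia and above it in astrocytes, where the log2 values were 0.68 for Tlr2 (SE 0.37, adjusted p = 0.221) and 0.54 for Cd14 (SE 0.23, adjusted p = 0.114) and did not pass the test. Without microglia KO replicate 1 the call of Tlr2 was lost (adjusted p = 0.0511) and so was that of Myd88 (0.0653). Myd88 also lost it without astrocyte KO replicate 1 (0.0874) and without astrocyte APOE33 replicate 3 (0.0533). For Ikbke the difference of the effects was 0.44 (SE 0.16, adjusted p = 0.0753). For APOE44 against APOE33 the effects differed between the cell types in 0 of 10 genes by edgeR and by DESeq2, with 0 at an unadjusted p under 0.05, and in 0.296% of all genes.

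**Figure D4:**
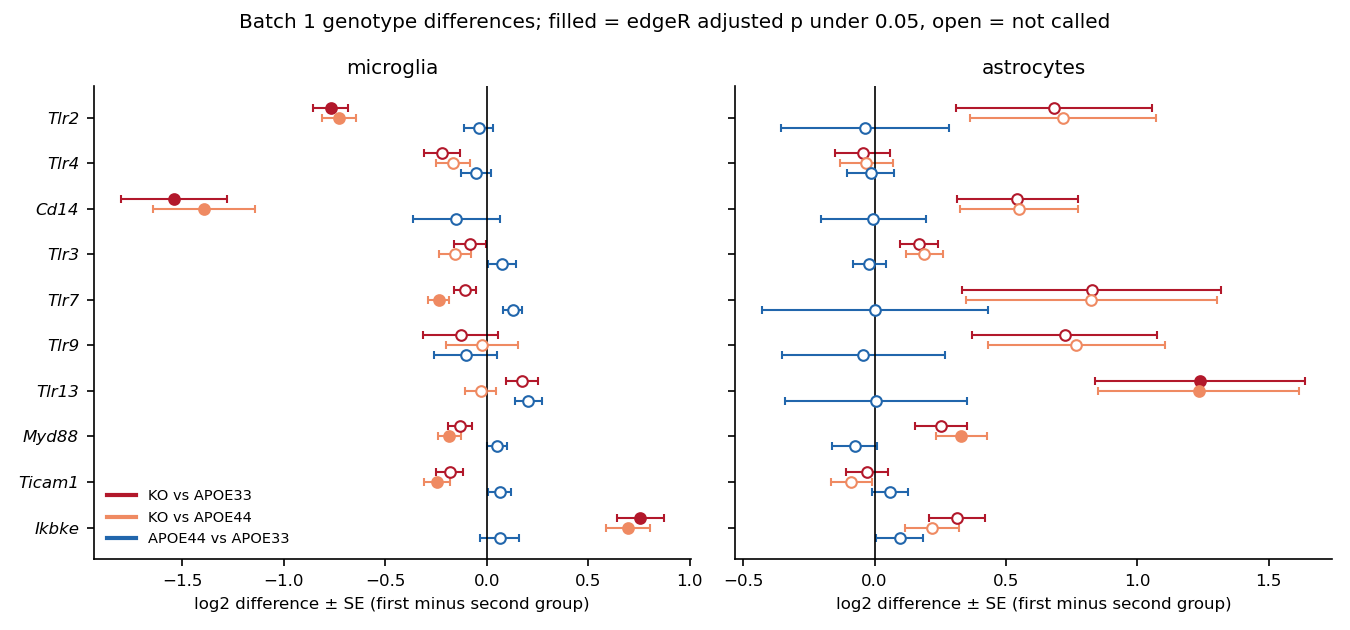
Log2 difference ± SE of the 10 genes between genotypes of batch 1 in microglia (left) and astrocytes (right), with filled points called at an edgeR adjusted p under 0.05. Tlr2 (-0.77) and Cd14 (-1.54) lie left of 0 and Ikbke (0.76) right of it for KO against APOE33 in microglia, and the SEs of Tlr7, Tlr13 and Tlr9 are wider in astrocytes than in microglia.

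Stretches of the promoters of Tlr2, which fell, and Ikbke, which rose, in KO microglia are printed here, since the 2 genes moved in opposite directions in the same libraries. They come from RefSeq (GRCm38.p6), run 5′ to 3′ on the minus strand and end where the annotated transcripts of the gene begin: chr3:83841768-83841858 for Tlr2 and chr1:131279607-131279813 for Ikbke. Capitals mark matches to an NF-kB core, GGG and CC with 5 bases of any kind between them, searched on both strands, with overlapping matches joined.
Tlr2: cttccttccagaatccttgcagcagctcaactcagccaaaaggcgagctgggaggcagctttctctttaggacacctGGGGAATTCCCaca
Ikbke: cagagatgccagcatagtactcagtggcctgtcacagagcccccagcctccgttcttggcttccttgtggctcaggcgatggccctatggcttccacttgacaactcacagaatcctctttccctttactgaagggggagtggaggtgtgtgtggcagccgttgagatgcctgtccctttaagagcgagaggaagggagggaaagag
The windows of 300 bases around the RefSeq starts, held for 7 of the 10 genes, were searched with the same letters: Tlr2, Tlr3 and Ticam1 had a match and Ikbke had none, while 50.8% of 32851 mouse promoters of that length hold one. No window was held for Cd14, Tlr4 or Tlr7, which were not searched. A core of the interferon-stimulated response element, GAAA and GAAA with 2 bases of any kind between them, occurred in Myd88 as GAAAGCGAAA, 40 bases before the RefSeq start, and in 3.44% of all promoters. The windows of Myd88 and Tlr3 lie inside the genes as annotated in GENCODE M21, which begin further upstream. A PU.1 core, GAGGAAGT, occurred in Tlr9 and in 3.2% of all promoters. A match is a run of letters, and binding was not measured here.

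Genes that act around the receptors were read from lists. In KO against APOE33 microglia, 12 of 16 inducible cytokines and chemokines were tested, and 0 were higher and 8 lower, with a median log2 value of -1.23 against -0.02 over all genes, of which 11.9% were called lower. Ptgs2, which encodes the inducible cyclooxygenase, averaged 1.24 ± 0.189 CPM in KO (SD, n = 4), against 11.4 ± 3.58 CPM in APOE33 (SD, n = 6), a log2 difference of -3.16 (SE 0.34, adjusted p = 3.26e-05). Ccl2, a chemokine for monocytes, averaged 0.705 ± 0.185 CPM in KO, against 4.09 ± 1.74 CPM in APOE33, and fell by 2.40 (SE 0.34, adjusted p = 0.000197). Cxcl1, a chemokine for neutrophils, had 0 to 4 counts in the KO libraries, against 32 to 109 counts in APOE33, and was called lower (adjusted p = 0.000445).

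Of 16 transcription factors and IkB proteins, 9 were lower and 0 higher in KO than in APOE33 microglia, with a median of -0.27. Nfkbia, the inhibitor of NF-kB that NF-kB itself induces, averaged 129 ± 7.05 CPM in KO (SD, n = 4), against 181 ± 9.84 CPM in APOE33 (SD, n = 6), a log2 difference of -0.52 (SE 0.06, adjusted p = 1.33e-05). Nfkb1, the precursor of the p50 subunit, fell by 0.36 (SE 0.04, adjusted p = 4.57e-05), and Nfkbie, another IkB protein, fell by 0.46 (SE 0.07, adjusted p = 0.000421). Of 6 further Toll-like receptors 5 were tested, with Tlr8 higher by 0.33 (SE 0.08, adjusted p = 0.00669) and with Tlr12, at 20 to 32 counts in KO and 46 to 96 counts in APOE33, called lower (adjusted p = 0.00240). Of 15 genes of ligand recognition and receptor maturation 3 were higher and 2 lower: the scavenger receptor Cd36 fell by 0.85 (SE 0.14, adjusted p = 0.000605), at 131 ± 24.8 CPM in KO and 246 ± 29.96 CPM in APOE33, while Lbp, which brings lipopolysaccharide to CD14, had 28 to 148 counts in KO and 0 to 18 counts in APOE33 and was called higher (adjusted p = 0.00251). Of 16 other adaptors and inhibitors 2 were higher and 1 lower: Rnf216, a ubiquitin ligase, fell by 0.37 (SE 0.04, adjusted p = 9.32e-06), and Irak3, an inhibitor of the receptor-bound kinases, was higher by 0.41 (SE 0.12, adjusted p = 0.0176). Of 18 downstream kinases and ubiquitin ligases 2 were higher and 3 lower, and of 11 cytosolic sensors 2 were higher and 1 lower, among them Nod2, a sensor of peptidoglycan, at 0.60 (SE 0.16, adjusted p = 0.0113) and Cgas, a sensor of DNA, at -0.38 (SE 0.08, adjusted p = 0.00395). The called shares of these adaptors, kinases and sensors were near the 22.7% of all genes. Of 32 genes of the type I interferon response 4 were higher and 0 lower, with a median of 0.04. Of all genes tested, 10.9% were called higher and 11.9% lower, so the share called higher was near that of all genes. Of the 4 called, the 3 with the smallest adjusted p were Ddx60 at 0.72 (SE 0.18), Bst2 at 0.72 (SE 0.22) and Ifi44 at 2.06 (SE 0.67), with adjusted p = 0.00970, 0.0281 and 0.0381.

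**Figure D5:**
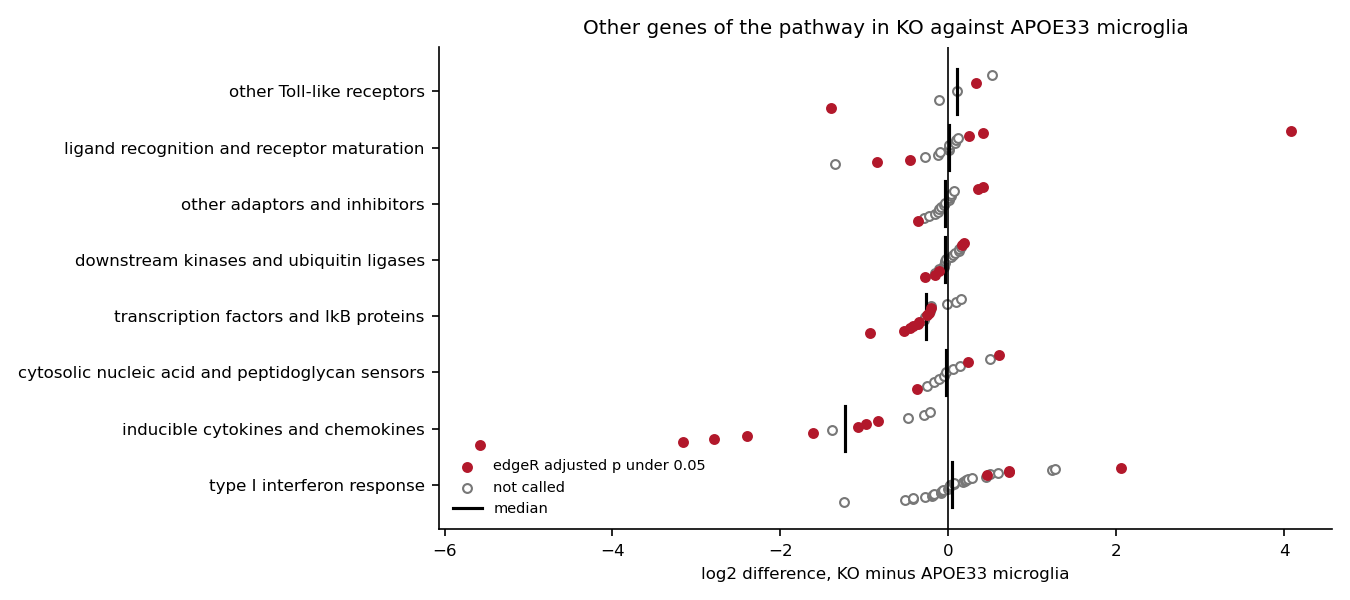
Log2 difference between KO and APOE33 microglia (x axis) for every tested gene of 8 lists of the pathway, with filled points called at an edgeR adjusted p under 0.05 and a bar at each list's median. The inducible cytokines (median -1.23) and the transcription factors and IkB proteins (median -0.27) lie mainly left of 0, while the other medians lie between -0.04 and 0.11.

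Against APOE44, which shares the KO libraries, 10 of 12 inducible cytokines were lower in KO microglia (median -1.32). Of 16 transcription factors and IkB proteins 1 was higher and 10 lower (median -0.27). Of 32 interferon response genes 0 were higher and 3 lower (median -0.44). Over all genes the median was -0.01, with 13.6% called higher and 13.4% lower. Between APOE44 and APOE33 microglia no gene of the 8 lists was called by edgeR, and the interferon response genes had a positive log2 value in 32 of 32 with a median of 0.70. Their sum overlapped between the groups, at 1424 to 2732 CPM in APOE44 and 1302 to 2013 CPM in APOE33.

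In KO astrocytes 0 of the 10 inducible cytokines tested were called against APOE33 (median -0.04). Of all genes tested there, 8.37% were called higher and 8.83% lower. Of the other Toll-like receptors, Tlr8 had a log2 difference of 2.00 (SE 0.37, adjusted p = 0.00243) and Tlr1 of 1.24 (SE 0.25, adjusted p = 0.00427), at 2.00 ± 0.751 CPM for Tlr8 in KO (SD, n = 4) and 0.546 ± 0.305 CPM in APOE33 (SD, n = 6). These levels were low: the 6 other receptors summed to 3.52 to 5.46 CPM in KO astrocytes and 2.33 to 3.43 CPM in APOE33 astrocytes. In APOE33 microglia they summed to 208 to 277 CPM. Unc93b1, which carries nucleic acid receptors to the endosome, was higher by 0.91 (SE 0.19, adjusted p = 0.00632), at 12.2 ± 1.67 CPM in KO and 6.95 ± 1.746 CPM in APOE33, and at 947 ± 110 CPM in APOE33 microglia. Bcl3, an atypical IkB protein, was the single called gene of 16 transcription factors and IkB proteins, at 6.29 ± 0.926 CPM in KO and 1.55 ± 0.588 CPM in APOE33 (log2 difference 1.89, SE 0.24, adjusted p = 0.000236). Bcl3 lies on chromosome 7 at 19808462 to 19822770, and Apoe at 19696109 to 19699188 on the same chromosome (GRCm38).

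Comparisons with WT set batch 1 against batch 2, and between 38.3% and 45.4% of all genes were called in them. In microglia, Ikbke had the largest difference of the 10 genes. WT libraries stood at 23.0 to 34.9 CPM (median 30.1), below every KO (126 to 150 CPM), APOE44 (80.0 to 101 CPM) and APOE33 (66.1 to 102 CPM) library. The log2 difference was 2.31 for KO (SE 0.11, adjusted p = 1.35e-11), 1.62 for APOE44 (SE 0.10, adjusted p = 5.57e-10) and 1.55 for APOE33 (SE 0.10, adjusted p = 8.65e-10). Tlr9 was likewise higher in all 3 groups, at 73.7 to 82.8 CPM in KO, 62.9 to 99.8 CPM in APOE44 and 63.3 to 110 CPM in APOE33, against 49.7 to 56.6 CPM in WT, with log2 values of 0.53, 0.56 and 0.66 (SE 0.14 to 0.15, adjusted p of 0.00789 or less). Ticam1 was higher by 0.15 in KO (SE 0.06, adjusted p = 0.0352), 0.40 in APOE44 (SE 0.05) and 0.33 in APOE33 (SE 0.05), and its WT range of 24.3 to 26.2 CPM overlapped none of the 3 groups. Its call in KO was kept in 8 of 15 alternative fits.

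Tlr2 and Cd14 in KO microglia stood near WT, and in APOE44 and APOE33 above it. Tlr2 ran from 346 to 460 CPM in WT, a range that held all 4 KO libraries (log2 difference 0.02, SE 0.09, adjusted p = 0.867), while APOE44 was higher by 0.75 (SE 0.08, adjusted p = 1.63e-07) and APOE33 by 0.79 (SE 0.08, adjusted p = 8.56e-08). Cd14 ran from 226 to 276 CPM in WT. KO stood at 194 to 235 CPM and overlapped it (log2 difference -0.20, SE 0.21, adjusted p = 0.486), APOE44 was higher by 1.16 (SE 0.19, adjusted p = 5.94e-05) and APOE33 by 1.29 (SE 0.19, adjusted p = 1.99e-05). Further calls were Tlr13, with a log2 value of -0.26 in APOE33 (SE 0.07, adjusted p = 0.00268), and in KO Tlr4 at -0.22 (SE 0.08, adjusted p = 0.0321) and Tlr7 at -0.19 (SE 0.05, adjusted p = 0.00447). In KO the call of Tlr4 was kept in 7 of 15 alternative fits and that of Tlr7 in 15 of 15. In all, 5 of 10 genes were called in KO (42.4% of all genes tested), 5 in APOE44 (45.4%) and 6 in APOE33 (44.8%), shares near those of all genes. Leaving out 1 library moved the KO count to between 3 and 5. The 3 comparisons share the WT libraries, and the microglia markers also differed, at a summed 31948 to 40048 CPM in the 3 groups and 23353 to 29208 CPM in WT.

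In astrocytes the log2 differences from WT of the called genes ran from -0.55 to 0.85. Ikbke was higher in KO by 0.48 (SE 0.10, adjusted p = 0.000866), with 14.4 to 17.8 CPM in KO and 8.80 to 12.96 CPM in WT and no overlap, and in APOE44 by 0.26 (SE 0.09, adjusted p = 0.0298). Myd88 was higher in KO by 0.31 (SE 0.08, adjusted p = 0.00575), with 12.5 to 13.4 CPM in WT, again without overlap. Cd14 was lower in APOE44, at a log2 value of -0.55 (SE 0.18, adjusted p = 0.0194), with 1.21 to 2.96 CPM in APOE44 and 2.34 to 3.04 CPM in WT, and in APOE33, at -0.52 (SE 0.18, adjusted p = 0.0270). Tlr9 in KO (0.85, SE 0.33, adjusted p = 0.0436) and Ticam1 in APOE44 (0.17, SE 0.06, adjusted p = 0.0323) were the remaining calls. In KO the calls of Ikbke and Myd88 were kept in 15 of 15 alternative fits and that of Tlr9 in 7 of 15. In APOE44 the call of Ikbke was kept in 9 of 17 fits, of Ticam1 in 11 and of Cd14 in 16. The call of Cd14 in APOE33 was kept in 12 of 17. The counts were 3 of 10 genes in KO (38.3% of all genes tested), 3 in APOE44 (41.7%) and 1 in APOE33 (39%). Without 1 library they ran from 2 to 4 in KO, from 0 to 3 in APOE44 and from 0 to 2 in APOE33.

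Tlr7 and Tlr13 are on the X chromosome, and TLR7 is known to escape X inactivation in some human immune cells. Neither was called between female and male libraries here. In microglia the log2 value of female against male was -0.02 for Tlr7 (SE 0.03) and 0.07 for Tlr13 (SE 0.05), each with an adjusted p of 0.997. In astrocytes it was 0.47 for Tlr7 (SE 0.31) and 0.38 for Tlr13 (SE 0.27), and the adjusted p was 1.00 for both. By edgeR 0 of 10 genes were called in either cell type, with 0 at an unadjusted p under 0.05, and DESeq2 also called 0; of all genes 0.0664% were called in microglia and 0.0752% in astrocytes.

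Over the 16 microglia libraries of batch 1, 3 of the 10 genes had an SD above 0.3 on the log2 CPM scale: Cd14 (0.70), Ikbke (0.36) and Tlr2 (0.34). For each, the tested gene with the closest profile was found by the root-mean-square difference of centred log2 CPM among 10665 genes. Closest to Tlr2 was Ugcg, which encodes glucosylceramide synthase, at 0.101, against a median of 0.360 over all genes; it averaged 19.5 ± 0.646 CPM in KO (SD, n = 4), 29.3 ± 3.08 in APOE44 and 29.3 ± 3.22 in APOE33 (SD, n = 6 each). Closest to Cd14 was Arhgef40, at 0.187 (median of all genes 0.695). Closest to Ikbke was Fads1, a fatty acid desaturase, at 0.118 (median 0.369), which averaged 287 ± 19.7 CPM in KO, 182 ± 14.9 in APOE44 and 172 ± 13.9 in APOE33. The 16 libraries share their genotypes and scaling, so a close profile is a description.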

How the data were processed

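RNA was sequenced from 44 libraries of primary mouse microglia and astrocytes as paired reads. The authors deposited 1 table of raw read counts per gene for all libraries. Per the submitters' processing notes, STAR 2.5.3a, featureCounts, edgeR 3.26.8 and DESeq2 were used. Those notes name a human build only, while the identifiers are mouse Ensembl genes, so the mouse build, annotation and strand setting behind the counts remain not given in those sources. Of the counts from 1 to 9, 62.4% to 78.7% were even in each library, so a count may not stand for a separate fragment, and counts are not independent molecules.

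Of the 54146 identifiers, 54079 matched GENCODE M21 (GRCm38), which gave symbols, positions and exon lengths. No row lacked a gene and no 2 libraries of a group were identical (102 pairs). Members were taken by symbol, and they and the gene lists were chosen with earlier results of these data known. Genotypes were compared within a cell type with edgeR 4.0.16 (R 4.3.3): filterByExpr, TMM scaling, a robust quasi-likelihood fit with sex as a covariate, and Benjamini-Hochberg adjustment over all genes tested, with calls at an adjusted p under 0.05. KO, APOE44 and APOE33 were fitted in 16 libraries, comparisons with WT and between sexes in 22, and cell types in the 32 libraries of batch 1 or the 12 of WT. The SE is the log2 difference divided by the root of its F. CPM used TMM factors over all 44 libraries, and levels between genes were set per kilobase of exon. The script was tested on simulated data: in KO against APOE33 microglia 74% of 100 changes of 0.5 and 87% of 100 changes of 1 (log2) were recovered.

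Named genes were the 10 members, Apoe, up to 3 called genes with the smallest adjusted p per list and comparison, and the nearest profile for members with an SD over 0.3. Bcl3 and Apoe positions were given after their values were seen. Alternatives were RLE scaling, no filter, DESeq2 1.42.0, no sex covariate, a replicate block, each library left out, and unscaled CPM.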

Additional observations from a re-analysis of the deposited data

Results flagged for a closer look

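In 5 of 80 group values of the 10 genes, 1 library lay far from the others of its group by Dixon's ratio; chance alone gives about 1 in 20. Tlr2 stood at 6.30 CPM in astrocyte APOE33 replicate 2, where the next highest library had 3.46, and Tlr13 stood at 7.95 CPM in the same library, where the next had 4.17. Cd14 stood at 2.96 CPM in astrocyte APOE44 replicate 6 (next 1.83) and at 769 CPM in microglia APOE44 replicate 5 (next 575). Ikbke stood at 126 CPM in microglia KO replicate 1, the 1 female KO library, below the other 3 KO libraries (next 148) and above every APOE44 and APOE33 library.

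The difference between KO and APOE33 itself differed between microglia and astrocytes for 3 genes, by a log2 value of -1.46 for Tlr2, by -2.09 for Cd14 and by -0.39 for Myd88 (edgeR quasi-likelihood test, adjusted p = 0.0148, 0.000297 and 0.0230). The summed microglia markers in astrocytes overlapped between the groups, at 282 to 567 CPM in KO and 189 to 610 CPM in APOE33. All markers of the set had a positive log2 value in KO against APOE33 astrocytes, though most were not called. Tlr2 stood at 0.68 and Cd14 at 0.54 in the same comparison, neither called. The part of the markers in these differences was not tested.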

How the results depend on the processing

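Of 3560 recomputed log2 values of the 10 genes, 3312 kept their sign and their side of the threshold. Of the rest, 74 lost and 31 gained a call, 0 reversed a call, and the others were uncalled values whose sign changed. The calls of Tlr2, Cd14 and Ikbke in KO microglia against APOE33 and APOE44 were kept in all 15 alternatives each. Without TMM scaling, 57 of 80 group means moved by more than 1 SD, at 0.797 to 1.24 times the scaled CPM. With DESeq2 the genes called numbered 319 against 144 for APOE44 against APOE33 in astrocytes, 418 against 144 in microglia, 381 against 64 for the difference of that effect between the cell types, 27 against 16 between sexes in astrocytes and 25 against 12 in microglia. Within WT alone, 4 genes were called between sexes in astrocytes and 6 in microglia. Of the 10 genes in KO against APOE33 astrocytes, 1 was called, against 2 with DESeq2, 0 without the filter and 0 without the sex covariate; in KO against APOE44 astrocytes 2 were called, against 1 without the filter.

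Replicate numbers were checked as a pairing, and same-numbered libraries correlated at -0.258 to 0.243 in their deviations from group and sex means. In the 22 pairs of astrocytes and microglia 5 correlated best with their own number. The sex label agreed in each of these pairs. Libraries of the same animal need not correlate in this way, so whether pairs shared an animal is not known. The main fits took the libraries as separate. With the number as a replicate block, 70 genes were called between APOE44 and APOE33 in astrocytes, 51 in microglia and 38 for the difference of that effect, and 1892 against 3522 in KO against APOE33 astrocytes. Of the 10 genes, 0 were then called in KO against APOE33 astrocytes, 0 against APOE44 astrocytes 3 against 5 in KO against WT microglia and 5 against 6 in KO against APOE44 microglia, where Myd88 lost its call (adjusted p = 0.0531).

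Leaving out 1 library gave 85 to 126 genes for APOE44 against APOE33 in astrocytes and 81 to 191 in microglia, and 40 to 403 for the difference of that effect (403 without microglia APOE33 replicate 2). KO against APOE33 astrocytes gave 1836 to 3688 genes (1836 without KO replicate 1) and 0 to 3 of the 10. The other counts of the 10 were 3 to 5 in KO against APOE33 microglia, 0 to 3 in KO against APOE44 astrocytes, 3 to 5 in KO against WT microglia, 0 to 2 in APOE33 against WT astrocytes and 0 to 3 in APOE44 against WT astrocytes. The cause of these shifts was not tested. Depth limits Tlr9 in astrocytes, at 16 to 88 counts.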
